A study of Mus musculus with 54 samples.

Results

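The LIN28A+ segments of seminiferous tubules with the Diff phenotype were compared with LIN28A+ segments of control testes at postnatal day 21 (P21). The comparison rests on 10 of the 54 libraries of the series, chosen by their labels: 4 Diff regions and 6 control sections. The Diff regions lie in testes of Blimp1-Cbfb cKO males, which carry the Blimp1-Cre transgene and 2 floxed Cbfb alleles (Cbfb fl/fl). The controls carry the same Cre transgene with a single floxed allele (Cbfb fl/+), so that they are heterozygous and the contrast is not against wild-type tissue. Blimp1-Cre acts in the germline from early embryonic life and has also been described in tissues outside the testis. The study defined Diff tubules by their morphology, as cKO tubules that still hold some differentiating germ cells but lack a full set of spermatocytes or spermatids, whereas control sections were circles placed at random. The control labels number the libraries by animal and section, with 3 sections for each of 2 animals. The animals of the Diff regions are not given, and as the study used 2 cKO animals at P21, the 4 regions must come from 2 animals or fewer, which makes p-values over regions too small.

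CBFβ, the product of Cbfb, binds no DNA itself but joins RUNX transcription factors and strengthens their hold on DNA. LIN28A is an RNA-binding protein of undifferentiated spermatogonia, the population that holds the spermatogonial stem cells, and DDX4 is an RNA helicase found throughout the germline. In a mature tubule the spermatogonia lie on the basement membrane, and spermatocytes and then spermatids are layered towards the lumen. GeoMx whole-transcriptome profiling hybridizes probes to a fixed section, releases their barcodes with light from the cells that an antibody stain selects, here LIN28A and DDX4 with a DNA dye, and counts the barcodes by sequencing. A segment can hold RNA of cells that touch the selected ones, and fewer cells of a type cannot be told apart from less RNA in each.

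The files name 20175 probes by identifier, and 0 of these identifiers could be paired with a gene in the tables used here. No result below therefore names a gene, and the level of Lin28a, of Ddx4 or of Cbfb could not be checked against the labels. Probes are named for the 2 smallest p-values in each direction of the Diff against control comparison. Their barcodes are shown because the 12-base barcode is the sequence that was counted. A barcode does not give the target by itself, which would need the maker's list of probes. The barcodes were copied from the deposited configuration and are printed in lower case, as no base is singled out.
RTS0068460: atcacctggctt
RTS0068462: tctggtaagaac
RTS0070554: ttgttgataagg
RTS0066123: ctaatacgcaca
The nearest other barcode of the panel differed from these at 3, 2, 2 and 3 bases, in the same order.

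The LIN28A+ libraries of Diff tubules were smaller than those of controls. They held 160983 to 283215 counts on segments of 3003 to 5967 µm2, against 189280 to 721322 counts on 6432 to 13576 µm2 in controls, so that no Diff segment was as large as the smallest control segment. The unit of area is not named in the file and was read as µm2. Counts per area overlapped, with 35.5 to 53.6 per µm2 in Diff and 29.4 to 58.1 in control segments. The median probe had 7 to 12 counts in a Diff library and 7 to 27 in a control library. In Diff libraries 84.5% to 91.4% of probes were within 2-fold of the median probe of the library, against 78.2% to 92.7% in controls. Diff region 1 stood apart before any comparison, since 64.9% of its reads were kept after trimming, against 99.3% to 99.6% in the other 3 Diff regions, and since it had the smallest area. Results that rest on it are given with and without it. Each pair of Diff regions differed by more than sampling noise, with a chi-square per degree of freedom of 1.025 to 1.064, and the 4 regions were kept as 4 samples. The 2 control animals differed more, by 1.213 to 1.735 between libraries of different animals, against 1.008 to 1.06 between sections of the same animal.

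The first question was how many probes separated Diff tubules from controls, and from which control animal. With the 4 Diff regions summed, and counting a probe when its CPM plus 5 differed more than 2-fold, Diff tubules differed from control animal 1 at 178 of 17290 probes (1.03%), with 106 higher and 72 lower. From control animal 2 they differed at 14 probes (0.081%), with 6 higher and 8 lower. The control animals differed from each other at 102 probes (0.59%), so that Diff tubules lay nearer to control animal 2 than the control animals lay to each other. The median log2 ratio over probes was 0.10 for Diff over control animal 1, 0.03 for Diff over control animal 2 and -0.07 for control animal 1 over animal 2, a shift that these unscaled ratios include. The added 5 CPM understates the fold of low probes. The SD of the log2 ratio over probes gave the same order, with 0.28 for Diff over control animal 2, 0.34 for control animal 1 over animal 2, and 0.38 for Diff over control animal 1. After each library was thinned to 160983 counts, the size of the smallest, the numbers were 647 probes against control animal 1, 216 against control animal 2, and 624 between the control animals. The thinned numbers were higher, and Diff over control animal 2 still had the fewest. Each library was thinned before summing, so the Diff sum held 4 thinned libraries and each control animal 3. The ratio between the control animals thus carried more sampling noise than the Diff ratios, and its place in the thinned order is not at equal depth. The thinned SD was 0.39 for Diff over control animal 2 and 0.47 for each of the other ratios, so that the order of those 2 was not kept. Against both control animals at once, 6 probes (0.0347%) were past 2-fold, 3 higher and 3 lower in Diff tubules, and 34 after thinning, with 25 higher. Leaving out each Diff region in turn gave 186 to 277 probes against control animal 1 and 24 to 39 against control animal 2. These counts carry no test, as each ratio sets 1 sum against another.

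**Figure D1:**
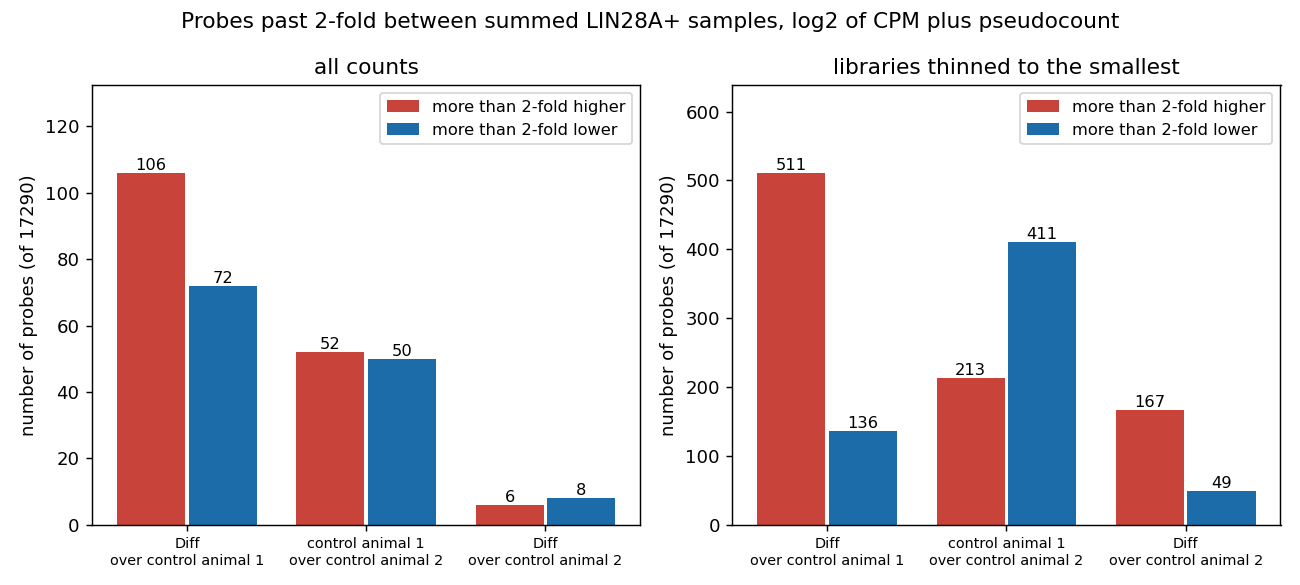
Number of probes, of 17290, whose LIN28A+ level differed more than 2-fold between summed samples, on the scale of CPM plus 5, with red bars for higher and blue bars for lower. In both panels Diff over control animal 2 has the fewest probes, 14 with all counts and 216 after thinning.

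In the replicated comparison, 12 of 17290 probes (0.0694%) were past an adjusted p of 0.05 by edgeR, 1 higher (0.00578%) and 11 lower (0.0636%) in Diff tubules than in controls. Here each Diff region was a sample and the 3 sections of a control animal were summed to 1. At an unadjusted p under 0.05 there were 1231 probes (7.12%), 505 higher (2.92%) and 726 lower (4.2%). With upper-quartile factors instead, the unadjusted split was 353 higher and 909 lower of 1262, and with limma-voom it was 788 higher and 695 lower of 1483, so that the balance of directions at this level depends on the method. The SE of a probe's log2FC had a median of 0.28. Without control animal 1 the count was 2, and without control animal 2 it was 505, with 48 higher and 457 lower. Leaving out an animal reduces its arm to 1 sample, so that the Diff regions alone give the spread and the lone animal is assumed to vary like them, here and in each such fit below. The biological coefficient of variation then fell from 0.130 to 0.0824 and 0.0835, and the 2 counts do not measure how a pair of like animals would vary. Without Diff region 1 it was 6. DESeq2 called 2 probes, both among the 12, and limma-voom on single libraries called 8, of which 4 were among the 12. After thinning, where 6032 probes had enough counts to be tested, 12 passed and 9 of them were among the first 12.

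The 11 lower probes shared a pattern across the control animals. In each of them control animal 1 had a higher level than control animal 2, by more than 2-fold in 9. The 11 were called on these same control sums, so the pattern is no independent evidence. On the scale of CPM plus 5, control animal 1 was more than 2-fold above control animal 2 at 52 of all 17290 probes. Control animal 1 was 2.53 to 16.2 times the mean of the Diff regions (median 3.33), whereas control animal 2 was 0.946 to 4.90 times that mean (median 1.43) and more than 2-fold above it for 3 probes. The 9 lower probes that are not named had Diff means of 32.5 to 508 CPM, sums of 154 to 1333 CPM in control animal 1 and of 66.1 to 539 CPM in control animal 2. Their log2FC lay between -2.09 and -0.94, with adjusted p of 1.59e-07 to 0.0488 by edgeR. All 4 Diff regions lay below all 6 control sections for 3 of the 11 probes, which were chosen for low values in these same regions. Over all probes tested, 162 (0.937%) had the Diff regions below all control sections and 214 (1.24%) had them above. Of the 12 calls, 3 had identifiers within 3 of the most lowered probe, where 6 probes were tested. Both numbers include that probe itself. Identifiers that lie close were not shown here to share a target.

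**Figure D2:**
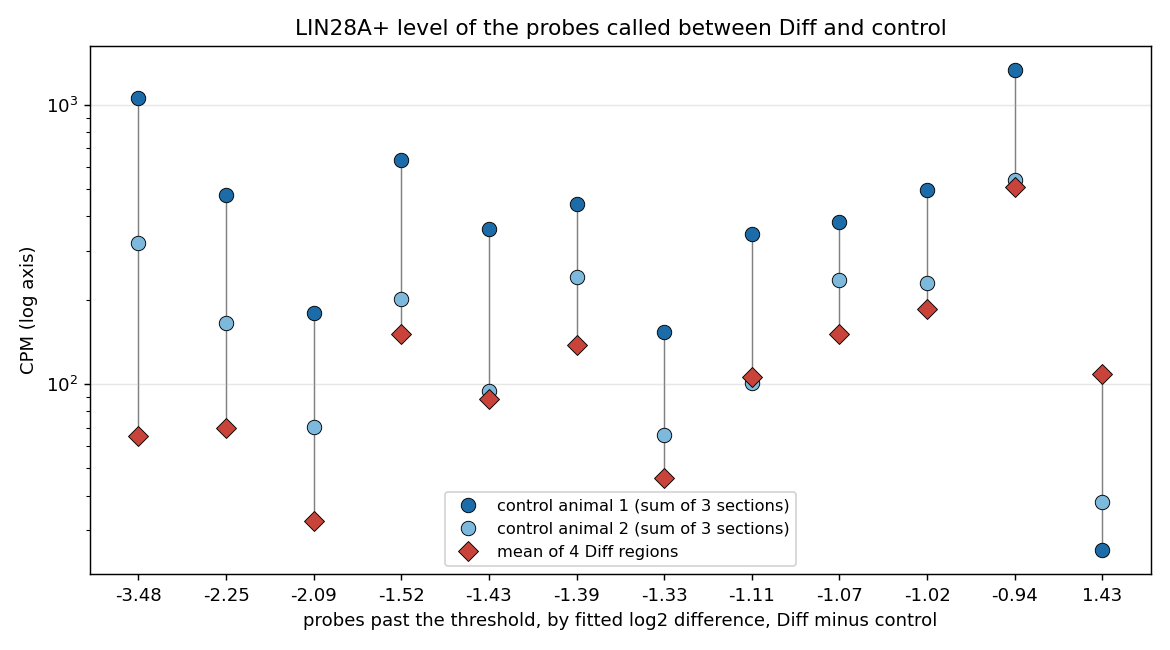
LIN28A+ level, as CPM on a log axis, of the 12 probes past the threshold, ordered by their fitted log2 difference, in control animal 1 and control animal 2 (circles, sums of 3 sections) and as the mean of the 4 Diff regions (diamonds). For the 11 lower probes control animal 1 is the highest of the 3 points, and 3 of them lie more than 2-fold below control animal 2. The probes were called on these same samples.

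RTS0068460 was the most lowered probe. Its level was 62.1, 74.1, 94.3 and 30.02 CPM in Diff regions 1 to 4. In the sections of control animal 1 it was 835, 1435 and 1199 CPM, and in those of control animal 2 it was 244, 563 and 152 CPM. The highest Diff region was below the lowest control section, so the groups did not overlap, and the control animals did not overlap each other either. The Diff mean was 65.2 ± 26.9 CPM (SD, n = 4 regions) and the animal sums were 1054 and 319 CPM, a log2FC of -3.48 (SE 0.262, adjusted p = 4.03e-36 by edgeR on regions of 2 animals or fewer), or 11.2-fold lower. Against control animal 1 the regions were 11.2-fold to 35.1-fold lower, and against control animal 2 they were 3.38-fold to 10.6-fold lower. After thinning to 160983 counts, the Diff regions had 18.6 to 93.2 CPM and the control sections 130 to 1385 CPM, and the log2FC was -3.72. The probe was past the threshold in 16 of 16 alternatives, with a log2FC of -2.33 without control animal 1 and -4.12 without control animal 2.

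RTS0068462 was next. Diff regions 1 to 4 had 55.9, 56.5, 80.2 and 86.3 CPM. Control animal 1 had 345, 688 and 576 CPM in its sections, and control animal 2 had 112, 305 and 77.3 CPM. Section 3 of control animal 2 lay between the Diff regions, and the other 5 control sections lay above them. The Diff mean was 69.7 ± 15.8 CPM (SD, n = 4 regions) against animal sums of 474 and 165 CPM, a log2FC of -2.25 (SE 0.277, adjusted p = 3.74e-12 by edgeR on regions of 2 animals or fewer), or 4.76-fold lower. The log2FC was -1.24 without control animal 1, with an adjusted p of 0.00239, and -2.84 without control animal 2. The probe passed in 15 of 16 alternatives, with a log2FC of -2.27 and an adjusted p of 0.9995 when all Diff regions were summed to 1 sample, where the 2 control animals alone give the spread.

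The probe past the threshold in the other direction rested on a single library. RTS0070554 had 342 CPM, from 55 counts, in Diff region 1, and 17.7, 28.3 and 48.8 CPM, from 5, 6 and 13 counts, in Diff regions 2, 3 and 4. The control sections had 10.6 to 39.8 CPM, and the animal sums were 25.5 and 37.9 CPM. Diff regions 2 and 3 lay within the range of the control sections, region 4 was somewhat above it, and region 1 was far above all others. The log2FC was 1.43 (SE 0.262, adjusted p = 0.000152 by edgeR on regions of 2 animals or fewer), and without Diff region 1 it was -0.048 with an adjusted p of 0.994. The LIN28A- segment of the same region had 39.3 CPM, from 29 counts, and the LIN28A- segments of the other Diff regions 34.6 to 46.6 CPM. Diff region 1 is the library that lost most reads to trimming, and the part of this loss in the value was not tested.

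RTS0066123 had the second smallest p among higher probes and did not pass the threshold. It had 422, 480, 434 and 717 CPM in Diff regions 1 to 4. In controls it had 201, 203 and 180 CPM in the sections of animal 1 and 362, 286 and 280 CPM in those of animal 2. Each Diff region was above each control section. The Diff mean was 513 ± 138 CPM (SD, n = 4 regions) against animal sums of 198 and 306 CPM, a log2FC of 0.98 (SE 0.239, adjusted p = 0.0539 by edgeR on regions of 2 animals or fewer). The adjusted p was under 0.05 in 6 of 16 alternatives, and the log2FC ranged from 0.75 to 1.30 over all of them. Pseudo-bulk cKO sections had 565 to 700 CPM of this probe, between the highest Diff region and the other 3.

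**Figure D3:**
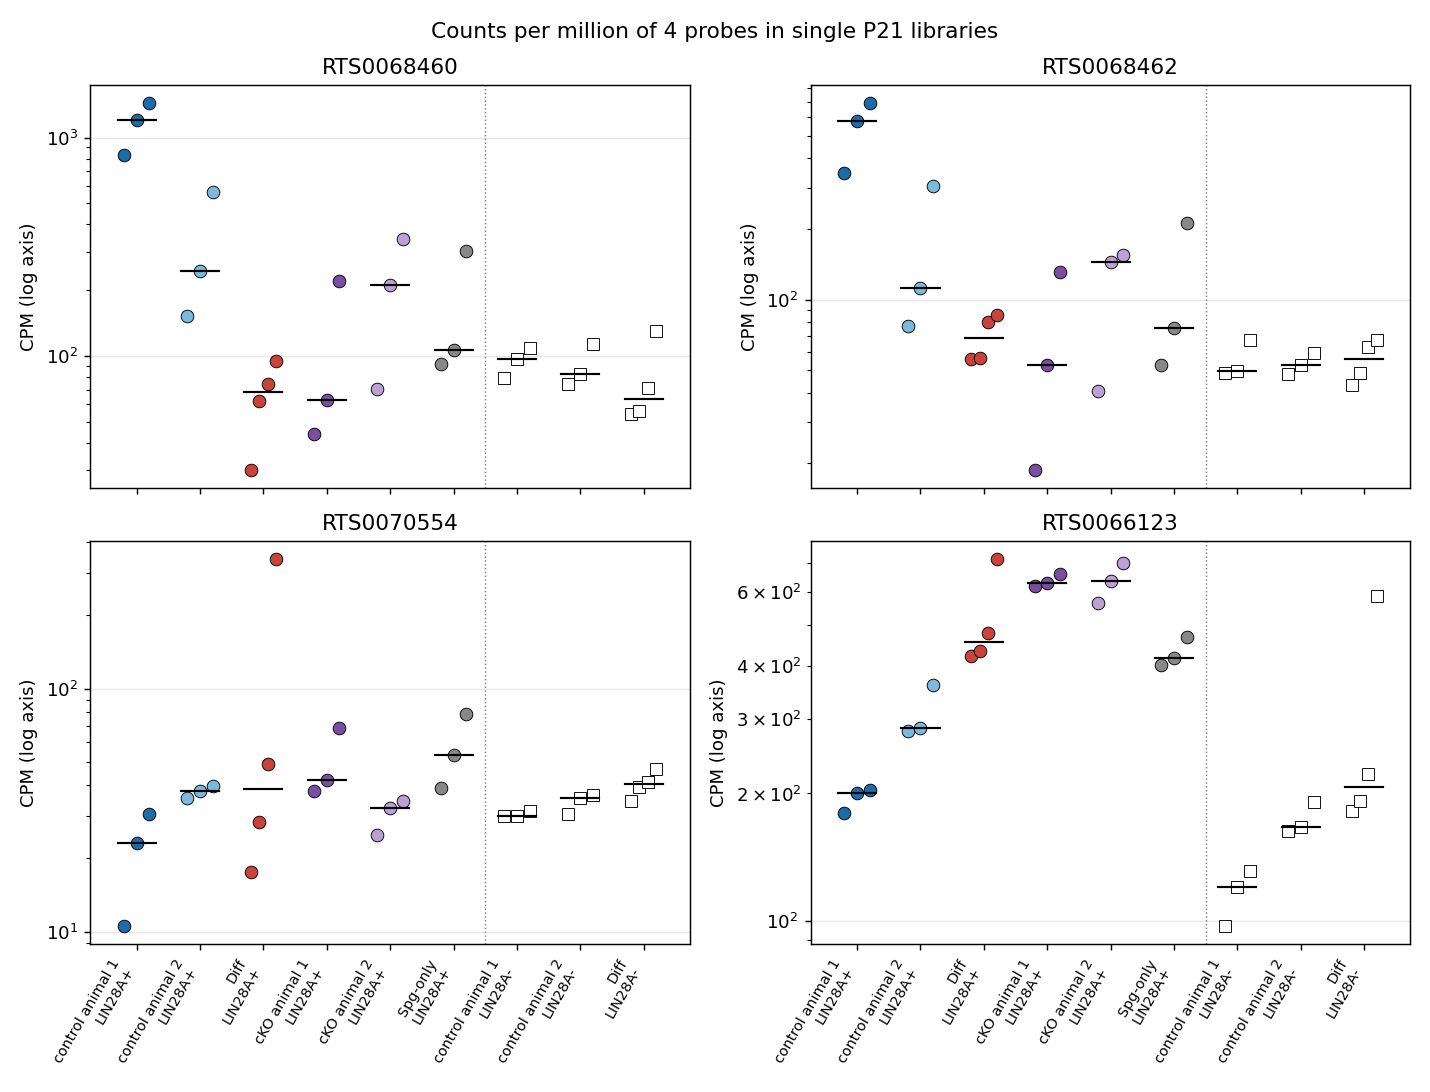
CPM of the 4 named probes on log axes in single P21 libraries, with filled circles for LIN28A+ and open squares for LIN28A- segments, horizontal lines at the group median, and a dotted line between the segments. RTS0068460 is lower in the 4 Diff regions (30.02 to 94.3 CPM) than in all 6 control sections, and RTS0070554 is high in a single Diff region at 342 CPM.

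The Diff regions were next set beside the 6 LIN28A+ sections of randomly placed cKO regions, called pseudo-bulk, from the same genotype. Of 17431 probes, 3 (0.0172%) were past an adjusted p of 0.05 by edgeR, all of them lower in Diff tubules, and 886 (5.08%) had an unadjusted p under 0.05. Each of the 3 was also among the 11 lower against controls, although the groups compared share the Diff regions and the lists are thus not independent. The count was 0 without Diff region 4 and 15 without cKO animal 2, a fit in which the Diff regions alone give the spread, and it was 0 by DESeq2, with 143 probes at an unadjusted p, and 0 by limma-voom, with 1246. RTS0068460 had 43.7 to 343 CPM in the cKO sections, which overlap the Diff regions, with animal sums of 148 and 207 CPM. Its log2FC was -1.51 (SE 0.231, adjusted p = 6.01e-06 by edgeR), and the adjusted p was 0.0726 without Diff region 4. RTS0068462 had 18.7 to 155 CPM in the cKO sections and a log2FC of -0.63 with an adjusted p of 0.906. All 11 probes that were lower against controls had a negative log2FC against pseudo-bulk cKO, with a median of -0.55 and a range of -1.51 to -0.15, where 49.1% of all probes tested were below 0. They had been chosen for low values in the same Diff regions, so these signs are no independent evidence. Against the same controls the pseudo-bulk cKO sums had a log2FC of -2.0004 for RTS0068460 and -1.65 for RTS0068462 (adjusted p = 1.72e-05 and 0.00667 by edgeR). Both were thus also called lower in randomly placed cKO regions, where 6 of 20172 probes passed, and their lowering was not particular to Diff tubules. In LIN28A+ segments of Spg-only tubules, cKO tubules with spermatogonia alone, RTS0068460 had 91.7, 106 and 302 CPM and RTS0068462 had 52.4, 75.9 and 213 CPM. Both ranges overlap those of the Diff regions. Diff minus Spg-only, the log2FC was -1.56 for RTS0068460 and -0.92 for RTS0068462 (adjusted p = 5.34e-05 and 0.357 by edgeR on regions). In that fit 4 of 5740 probes passed, 1 of them lower in Diff tubules. The animals of the Spg-only regions are not given either.

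A further comparison asked whether the difference was the same in the LIN28A- segments of the same places. There the germ cells are DDX4+ without LIN28A. RTS0068460 had 54.2, 56.2, 71.2 and 129.5 CPM in the LIN28A- segments of Diff regions 1 to 4, and 74.5 to 114 CPM in those of the 6 control sections. The ranges overlapped, and the log2FC was -0.36 (adjusted p = 0.62 by edgeR). RTS0068462 had 43.2 to 67.4 CPM in Diff and 48.3 to 67.4 CPM in control LIN28A- segments, with a log2FC of -0.06 and an adjusted p of 0.943. In controls both probes were higher in LIN28A+ than in LIN28A- segments, 6.25-fold for RTS0068460 and 5.16-fold for RTS0068462 (adjusted p = 3.91e-94 and 7.70e-54 by edgeR with the animal as a block). Within Diff regions the log2 difference, LIN28A- minus LIN28A+, was 0.30 for RTS0068460 (adjusted p = 0.903) and -0.33 for RTS0068462 (adjusted p = 0.873).

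The difference of these differences was tested as an interaction with the region or animal as a block. Of 20059 probes, 2 (0.00997%) passed an adjusted p of 0.05 by edgeR, RTS0068460 with -2.93 on the log2 scale (SE 0.382, adjusted p = 9.02e-07) and RTS0068462 with -2.03 (SE 0.348, adjusted p = 0.00126). Both were lower in Diff than in control segments by more in LIN28A+ than in LIN28A- tissue. In control LIN28A- libraries, 5% of probes were below 19.8 to 26.5 CPM and 5% above 83.8 to 109 CPM. RTS0068462 lay between these levels there, and RTS0068460 near the upper one. A probe at background in LIN28A- segments cannot fall there, so the test does not tell a segment-specific change from such a floor. Whether either probe was at background was not tested. At an unadjusted p under 0.05 there were 1206 probes (6.01%). Without Diff region 1, RTS0068460 had -3.06 (adjusted p = 0.000203 by edgeR), and RTS0068462 had -1.99 and did not pass (adjusted p = 0.116). Without control animal 1, where the Diff regions alone give the spread, no probe passed, with 785 at an unadjusted p, and the values were -2.11 for RTS0068460 (adjusted p = 0.0517) and -1.29 for RTS0068462 (adjusted p = 0.9997). DESeq2 called 0 probes, with 312 at an unadjusted p. The count was 13 without control animal 2, 1 without Diff region 1, 6 without Diff region 2, and 4 without Diff region 3 or Diff region 4. Of the 11 probes lower in LIN28A+ Diff segments, 10 also had a negative log2FC in LIN28A- segments, where 48.1% of all probes tested were below 0. Of the 11, 4 passed the threshold there, all lower, where 160 of 20144 probes (0.794%) did and 143 (0.71%) were lower. The LIN28A- segments come from the same regions and control animals by which the 11 were chosen, so these signs are no independent evidence.

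Since no gene names were at hand, probes were also grouped by the segment in which they were higher. In pseudo-bulk cKO, 931 probes were higher in LIN28A- and 482 in LIN28A+ segments at an adjusted p under 0.05, by edgeR with the animal as a block. These lists used no Diff or control library, though the Diff regions may come from the same animals. Of the LIN28A- list, 896 probes were tested between Diff and control LIN28A+ segments. Their median log2FC was -0.22, against 0.01 over all 17290 probes, and 140 (15.6%) were lower and 6 (0.67%) higher at an unadjusted p under 0.05, beside 4.2% lower and 2.92% higher over all probes. At an adjusted p, 3 were lower, beside 0.0636% of all probes. Of the LIN28A+ list, 475 probes were tested, with a median log2FC of -0.25, and 74 (15.6%) were lower and 2 (0.421%) higher, beside the same 4.2% and 2.92% over all probes, with 6 lower at an adjusted p. Both medians were below that of all probes. List members were chosen for differing between segments, whereas most probes lay within 2-fold of the median probe of their library. The values over all probes are thus not a matched reference. The 100 highest probes took 7.52% to 8.30% of counts in Diff and 8.14% to 9.29% in control LIN28A+ libraries. The part of signal over background in the list values was not tested. Of the 11 lower calls, 3 were on the LIN28A- list and 6 on the LIN28A+ list, which hold 5.18% and 2.75% of the probes tested.

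The LIN28A- and the LIN28A+ list differed in how they stood to each control animal. Without control animal 1 the median of the LIN28A- list was -0.14 and that of the LIN28A+ list was 0.03, and without control animal 2 they were -0.29 and -0.45. The share of a library's counts on the LIN28A- list was 5.84% to 6.19% in the 4 Diff regions, 6.27% to 6.55% in control animal 2, and 6.99% to 7.58% in control animal 1, so that Diff regions were below all control sections. The share on the LIN28A+ list was 4.81% to 5.38% in Diff regions and 4.94% to 5.31% in control animal 2, which overlap, and 7.12% to 7.29% in control animal 1. Pseudo-bulk cKO sections had 5.71% to 6.26% on the LIN28A- list, which overlaps the Diff regions and reaches past them at both ends. On the LIN28A+ list they had 5.386% to 6.67%. The lowest section was almost level with the highest Diff region, at 5.384%, and the others were above all Diff regions. The LIN28A+ list was chosen for being high in those cKO libraries. The part of spermatocyte or spermatid RNA in these shares was not tested.

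**Figure D4:**
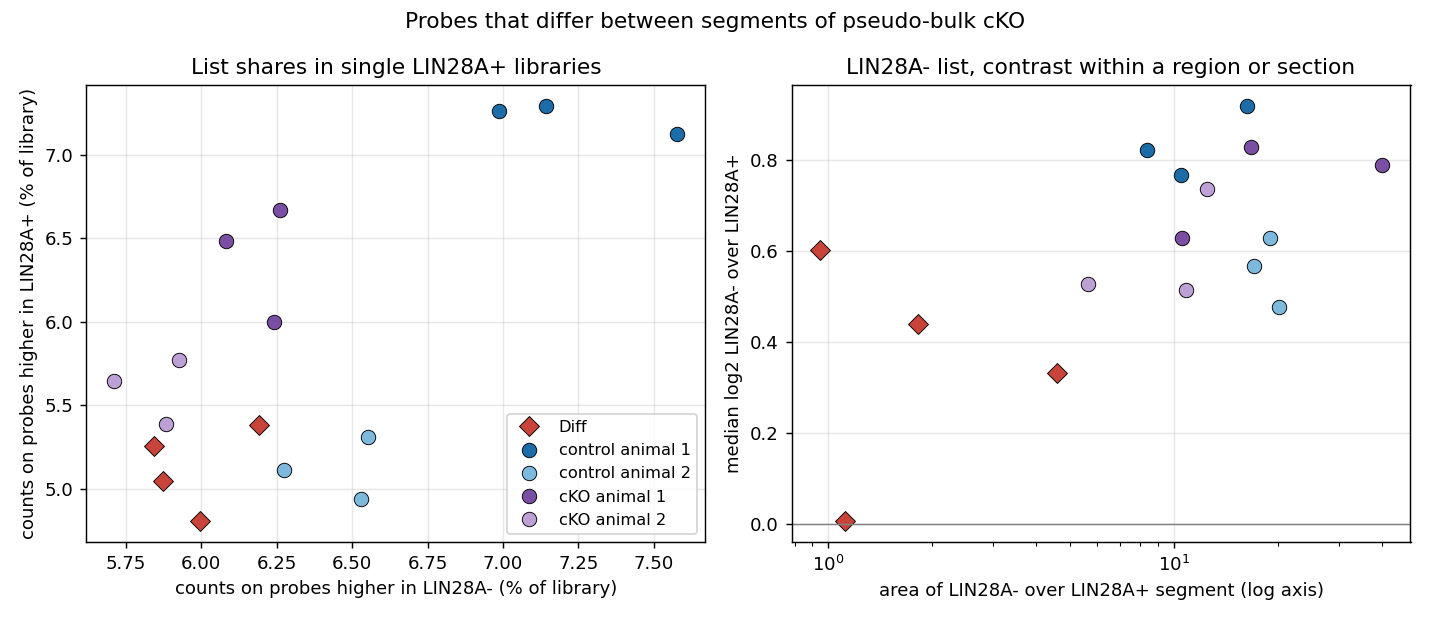
Left, share of each LIN28A+ library's counts on probes higher in LIN28A- (x, %) and higher in LIN28A+ segments (y, %) of pseudo-bulk cKO. Right, median log2 ratio of LIN28A- over LIN28A+ CPM over the LIN28A- list (y) against the ratio of the segments' areas (x, log axis) in each region or section. Diff regions (diamonds) lie left of all control sections on the x axis of both panels.

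The contrast between the segments of a place was smaller in Diff regions than in control animal 1. Over the LIN28A- list, the median log2 ratio of LIN28A- over LIN28A+ CPM was 0.33, 0.60, 0.44 and 0.01 in Diff regions 1 to 4, against 0.77 to 0.92 in the sections of control animal 1 and 0.48 to 0.63 in those of control animal 2. Over the LIN28A+ list it was -0.22, -0.43, -0.39 and -0.20 in Diff regions, -0.75 to -0.71 in control animal 1 and -0.41 to -0.38 in control animal 2. Diff regions 2 and 3 were therefore at or near the values of control animal 2, and region 4 showed almost no contrast over the LIN28A- list. In region 4 the LIN28A- list took 6.25% of the counts of the LIN28A- library and 6.19% of the LIN28A+ library, and RTS0066123, which was 1.67-fold higher in LIN28A+ than in LIN28A- segments of controls, had 585 CPM in the LIN28A- library of region 4 and 181 to 222 CPM in those of the other Diff regions. The LIN28A- segments of Diff regions were 0.95 to 4.60 times the area of the LIN28A+ segments, against 8.35 to 20.1 times in control sections. These groups did not overlap in this ratio. In pseudo-bulk cKO sections the ratio was 5.65 to 40.1, and the median log2 ratio over the LIN28A- list was 0.52 to 0.83. The study drew Diff regions around chosen tubules and placed circles at random in control and pseudo-bulk cKO testes. The part of this placement in the areas and contrasts was not tested. After thinning, the medians over the LIN28A- list were 0.00 to 0.65 in Diff regions, 0.79 to 0.93 in control animal 1 and 0.49 to 0.67 in control animal 2.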

How the data were processed

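GeoMx whole-transcriptome libraries of P21 mouse testis segments were analysed. The authors trimmed, stitched and aligned the reads to probe barcodes and collapsed them by molecular identifier with the maker's GeoMx NGS Pipeline (version 2.3.3.10 per the file headers), and deposited whole-number counts per probe, with no normalization, background subtraction or filter. Probes without a count were set to 0. The files do not mark negative control probes, so no limit of quantification was computed. The members, lists, rule for named probes and tests were chosen with earlier results of these data known, and p-values measure only the spread between these samples.

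The 3 sections of a control or pseudo-bulk cKO animal, read from the number before the dot in the labels, were summed. Diff regions would have been summed where a chi-square test over probes with at least 10 counts in a pair gave p above 0.05, which none did. Counts were tested with edgeR 4.0.16 in R 4.3.3 (glmQLFit and glmQLFTest, two-sided, TMM, filterByExpr with a minimum count of 10, Benjamini-Hochberg adjustment over all probes tested, threshold 0.05). SE values are those implied by the F statistic, and a log2FC is Diff minus the reference. CPM are counts scaled to the total of a library or sum. The number before the dot pairs both segments of an animal and the region number pairs both segments of a Diff region, as they were cut from the same place, and the interaction was fitted with this block. The 2-fold counts used log2 of CPM plus 5. Alternatives were DESeq2 1.42.0, limma-voom (limma 3.58.1), other factors, filters, sample units, thinning and leaving out each sample. The fits were tested on simulated counts of independent samples with equal spread and no effect of the animal. This does not check p-values over regions that share animals. P6 libraries and gene-level tests were not used here.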

Additional observations from a re-analysis of the deposited data

Results flagged for a closer look

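In each group of 4 to 10 libraries, the highest and the lowest were checked with Dixon's ratio for the levels of the named probes and for measures of library quality, in 34 checks in all. Chance flags about 1 in 20, and 5 were flagged. The LIN28A+ library of Diff region 1 gave 3 of them, with 342 CPM of RTS0070554, an area of 3003 µm2 and 64.9% of reads kept after trimming. The LIN28A- library of Diff region 4 had 585 CPM of RTS0066123. The LIN28A+ library of section 3 of control animal 2 kept 99.5% of its reads after trimming, a small distance from the other control sections in absolute terms.

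The Diff minus control difference was not the same in the 2 segments, by the interaction test in edgeR, for RTS0068460 with -2.93 and for RTS0068462 with -2.03 on the log2 scale. The test does not tell this from a floor in LIN28A- segments, where a probe at background cannot fall. Without Diff region 1, RTS0068460 still passed, and RTS0068462 did not, with -1.99 and an adjusted p of 0.116 by edgeR. Without control animal 1, which leaves 1 control animal and takes the spread from the Diff regions alone, the values were -2.11 and -1.29 and neither passed the threshold, with adjusted p of 0.0517 and 0.9997.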

How the results depend on the processing

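Counts of probes moved with most choices, and the cause was not tested unless named. For Diff against control, where 12 probes passed, the counts were 2 with DESeq2, 19 with upper-quartile factors, 2 with all Diff regions summed, 7 with Diff regions 2 and 3 summed (chosen after seeing the data), and 2 to 505 with each sample left out, the extremes being control animal 1 and control animal 2, whose absence leaves an arm of 1 animal assumed to vary like the Diff regions. For Diff against pseudo-bulk cKO, where 3 passed, they were 0 with DESeq2 and with limma-voom, 1 without the filter, in the fit of all LIN28A+ groups, with regions 2 and 3 summed, and with thinned sums (the last pair chosen after seeing the data), 5 with each section as a sample, and 0 to 15 with each sample left out. For the interaction, where 2 passed, they were 0 with DESeq2, 4 after thinning, and 0 to 13 with each sample left out. Without the replicate block, that is without pairing the segments, the same 2 probes passed and 928 had an unadjusted p under 0.05, against 1206 with it, so the pairing changed no call. Fitting every Diff region as its own sample was the design already used and was not run again.

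RTS0070554 turned to -0.048 without Diff region 1, and its log2FC ranged from -0.048 to 1.89 with each sample left out. RTS0068460 and RTS0068462 kept their direction in 16 of 16 alternatives each.

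The median of the LIN28A- list, -0.22, was -0.14 with lists from the control animals, -0.25 with upper-quartile factors, -0.19 after thinning, and -0.29 to -0.14 with each sample left out. That of the LIN28A+ list, -0.25, was -0.32 with lists from the control animals and -0.45 to 0.028 with each sample left out, turning without control animal 1. The lists from controls share libraries with the comparison.

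The 2-fold counts rose with a pseudocount of 1 CPM, to 255 probes higher than control animal 1, 20 higher and 15 lower than control animal 2, 127 lower in control animal 1 than in animal 2, and 6 lower than both control animals. After thinning they were 511 higher and 136 lower than control animal 1, 167 higher and 49 lower than control animal 2, 213 higher and 411 lower for control animal 1 over animal 2, and 25 higher and 9 lower than both. With each Diff region left out (chosen after seeing the data) they were 118 to 177 higher and 68 to 108 lower than control animal 1, 6 to 16 higher and 15 to 23 lower than control animal 2, and 2 to 5 higher and 3 to 9 lower than both. With 7 to 12 counts on the median probe of a Diff library, small changes of most probes were not detectable at this depth.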
